A study of Mus musculus with 4 samples.

Results

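The genes described here are the subunits of the transcription factor NF-kB and the inhibitors that bind them, measured in mouse lumbar spinal cord after injury of a spinal nerve. They were taken by gene name from the array's own annotation and number 10 of 29119 genes and named transcripts tested. They are Rela, Relb, Rel, Nfkb1, Nfkb2, Nfkbia, Nfkbib, Nfkbie, Nfkbiz and Bcl3, read by 15 probes in 16 spots, and all 10 were well above background on all 4 arrays. The mice were male ICR animals, an outbred strain, aged 8 weeks. In 2 of them the L5 spinal nerve was tied tightly with silk (spinal nerve ligation, SNL), and in 2 the nerve was exposed and not tied (sham). All were perfused with saline at day 10 and gave 1 array each, from the L4 to L5 cord segments by the protocol, while the tissue label names L5 alone. The labels do not say which side of the cord was taken, and the samples hold RNA of all cell types.

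NF-kB is a dimer of Rel proteins that waits in the cytoplasm bound to an IkB protein. Signals such as tumour necrosis factor, interleukin 1 or Toll-like receptor ligands activate the IkB kinase, the IkB is degraded, and the dimer enters the nucleus and switches on inflammatory genes. Among its best known targets are genes of the family itself, above all Nfkbia, whose product IkB-alpha takes the dimer back out of the nucleus. In the spinal cord the pathway is active in glia and neurons and has long been studied in models of neuropathic pain.

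Because transcription of family members by NF-kB itself is a known feature of the pathway, the promoters are shown first. RefSeq promoter windows (GRCm38.p6, 250 bases before and 50 after the start) were at hand for 7 of the 10 genes. The kappaB consensus (3 G, a purine, any base, 3 pyrimidines, 2 C, either strand) lay in a window of 4 of these 7 genes, namely Nfkbia, Nfkb2, Rel and Bcl3. Over the whole table, 6.55% of 27025 genes and 5.81% of 32851 windows held a match. These shares are a description of letters and do not show binding. Below are the 250 bases before the start of Nfkbia (chr12:55492648-55492897, minus strand), of Nfkb2 at its first start (chr19:46304487-46304736, plus strand) and of Rel (chr11:23770970-23771219, minus strand), which hold matches, and of Nfkbie (chr17:45555450-45555699, plus strand), which holds none. Capitals mark the consensus matches.
Nfkbia: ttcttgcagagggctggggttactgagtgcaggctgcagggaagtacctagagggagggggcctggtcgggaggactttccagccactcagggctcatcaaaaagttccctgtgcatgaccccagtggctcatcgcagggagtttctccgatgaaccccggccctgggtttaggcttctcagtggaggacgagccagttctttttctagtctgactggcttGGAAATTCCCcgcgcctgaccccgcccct
Nfkb2: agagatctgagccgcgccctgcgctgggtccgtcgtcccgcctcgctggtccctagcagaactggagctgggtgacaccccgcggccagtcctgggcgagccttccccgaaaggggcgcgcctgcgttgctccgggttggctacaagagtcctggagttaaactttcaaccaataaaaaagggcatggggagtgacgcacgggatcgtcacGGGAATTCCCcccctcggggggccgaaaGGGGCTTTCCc
Rel: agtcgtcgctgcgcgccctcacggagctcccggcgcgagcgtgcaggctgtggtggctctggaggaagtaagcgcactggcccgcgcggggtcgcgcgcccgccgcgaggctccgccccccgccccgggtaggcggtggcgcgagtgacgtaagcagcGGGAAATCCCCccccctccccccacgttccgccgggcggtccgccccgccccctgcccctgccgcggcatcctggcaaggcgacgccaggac
Nfkbie: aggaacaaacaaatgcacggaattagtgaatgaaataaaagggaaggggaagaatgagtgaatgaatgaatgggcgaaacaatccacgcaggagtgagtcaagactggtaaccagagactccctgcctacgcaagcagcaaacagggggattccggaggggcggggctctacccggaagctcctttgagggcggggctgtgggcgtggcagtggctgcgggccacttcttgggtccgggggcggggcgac

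In Nfkbia the match began 29 bases before the annotated start. In Nfkb2 the first window had matches beginning 39 and 11 bases before it, the former a palindrome that matches on both strands. In Rel 2 overlapping matches lay on the reverse strand, beginning 92 and 91 bases before the start. The match of Bcl3, GGGAAGTCCC, lay just after the start. A narrower form (3 G, any 2 bases, 3 T, 2 C), which overlaps the consensus, was present in Nfkbia, Nfkb2 and Rel and in 1.63% of all windows. The windows of Rela, Nfkbib and Nfkbie held neither form.

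After ligation the family did not move as a block. The inhibitor gene Nfkbia and the nuclear cofactor gene Bcl3 were higher in both ligated mice, the inhibitor gene Nfkbie was lower in both, and the changes of the 5 subunit and precursor genes lay between -0.13 and 0.37. In limma, 0 of the 10 genes passed an adjusted p under 0.05, where 0.172% of all genes passed in either direction. At unadjusted p under 0.05, 2 of 10 were higher (6.67% of all genes) and 1 was lower (5.47% of all genes). Over all genes this split was 4.19% higher and 7.02% lower with scaling to the median, and 5.89% and 8.24% with quantile normalization. The median log2 change of the 10 genes was 0.13, against 0.028 over all genes tested, and 7 lay above 0 against 54.9% of all genes. In 6 genes both SNL mice lay above both sham mice and in 1 both lay below, against 24.9% and 20.9% of all genes, or 45.8% in either direction. The 6 depend on the processing. Nfkbiz overlapped with normexp background correction, quantile normalization and scaling to the median. Rela overlapped with the quantile and median settings and with the authors' deposited values. Nfkb2 overlapped with normexp correction and Nfkb1 with scaling to the median. In turn, Relb lay below with normexp correction and scaling to the median, and Nfkbib above as the mean of its probes. With 2 mice per group the smallest p of a two-sided exact permutation test is 0.333, and no such test was run on single genes. The values below are log2 signals relative to the array's 75th percentile, and since probes differ in efficiency, a level is compared only with the same probe on other arrays.

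**Figure D1:**
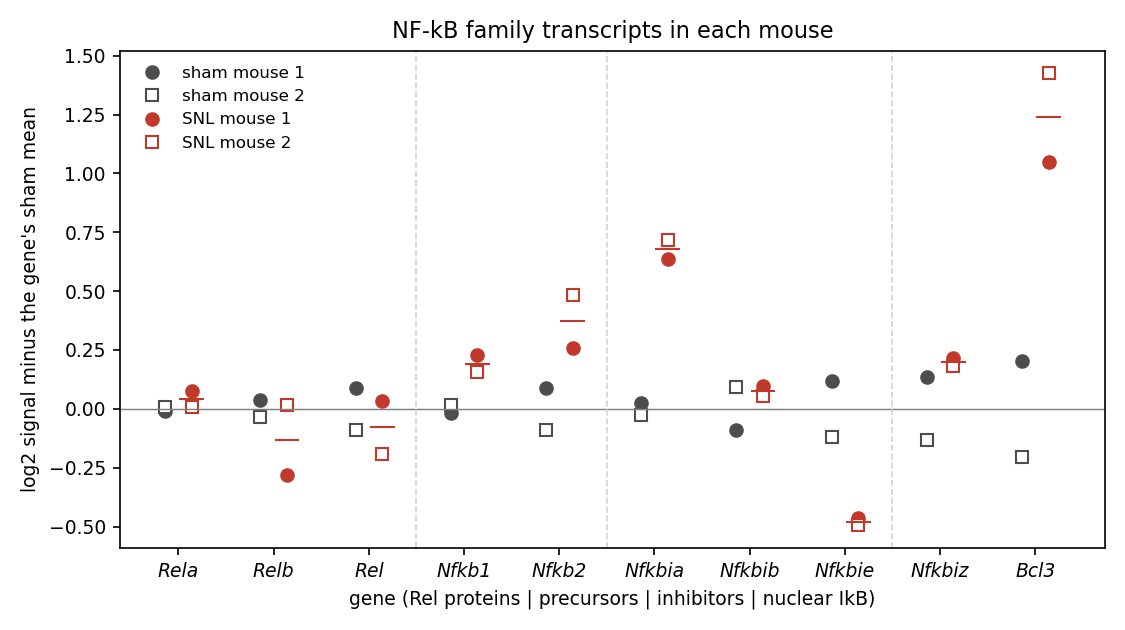
Log2 signal of each of the 10 genes in each mouse, as the difference from that gene's sham mean (vertical axis), for sham (grey) and SNL (red) mice, with a red line at the SNL mean. Both SNL mice stand above both sham mice in Nfkbia and Bcl3 (mean differences 0.68 and 1.24) and below them in Nfkbie (-0.48), and the SNL means of Rela, Relb and Rel differ from sham by 0.041, -0.13 and -0.079.

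Rela encodes p65, the subunit that carries most of the activating function of classical NF-kB. Its log2 signals were 1.62 and 1.64 in the sham mice and 1.70 and 1.64 in the SNL mice. The groups touch, since the lower SNL mouse exceeded the higher sham mouse by only 0.00012. The change was 0.041 ± 0.091 (SE, n = 2 per group, limma adjusted p = 0.890), with a 95% interval of -0.22 to 0.30. In fold terms this interval runs from 0.858 to 1.23. The change was -0.058 with scaling to the median (95% interval -0.48 to 0.37). With normexp background correction it was 0.18 (95% interval -0.097 to 0.45). Its probe lies on mm9 chromosome 19 at 5648070 to 5648129, plus strand.

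Relb, the partner of p52 in the alternative pathway, gave -0.21 and -0.29 in sham mice and -0.53 and -0.23 in SNL mice. Only SNL mouse 1 was lower, and the groups overlapped. The change was -0.13 ± 0.14 (95% interval -0.55 to 0.28, limma adjusted p = 0.755). Its probe lies on mm9 chromosome 7 at 20191773 to 20191832, minus strand. Rel, which encodes the c-Rel subunit of lymphoid and myeloid cells, gave -4.54 and -4.72 in sham mice and -4.59 and -4.82 in SNL mice. These groups also overlapped, with a change of -0.079 ± 0.14 (95% interval -0.48 to 0.32, limma adjusted p = 0.856). The direction of both genes turned in some settings, to 0.0058 for Relb averaged over its probes and to 0.015 without SNL replicate 1. For Rel it turned to 0.034 without SNL replicate 2 and to 0.010 without sham replicate 1.

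The precursor genes Nfkb1 and Nfkb2 encode p105 and p100, which are cut to the DNA-binding subunits p50 and p52 and act as inhibitors while uncut. Nfkb1 gave -0.56 and -0.52 in sham mice and -0.31 and -0.38 in SNL mice. Both SNL mice were higher, by at least 0.14, and the change was 0.19 ± 0.092 (95% interval -0.074 to 0.46, limma adjusted p = 0.517). It was 0.093 with scaling to the median and 0.098 with normexp correction. Nfkb2 gave -1.59 and -1.77 in sham mice and -1.42 and -1.19 in SNL mice. Both SNL mice were again higher, by at least 0.17, with a change of 0.37 ± 0.14 or 1.29-fold (95% interval -0.027 to 0.77, limma adjusted p = 0.438). It was 0.20 with normexp correction and 0.26 to 0.49 with 1 mouse left out. The probe of Nfkb1 lies on mm9 chromosome 3 at 135247621 to 135247680, minus strand. That of Nfkb2 runs over 140 bases of chromosome 19, from 46386146 to 46386285 on the plus strand, which is more than its 60 bases, so it crosses an intron.

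Nfkbia encodes IkB-alpha, the inhibitor that NF-kB induces and that ends a response. Its log2 signals were 1.93 and 1.88 in sham mice and 2.54 and 2.62 in SNL mice. The lower SNL mouse was 0.61 above the higher sham mouse, and SD within a group was 0.037 for sham and 0.057 for SNL. The change was 0.68 ± 0.094 or 1.60-fold (95% interval 1.32 to 1.93-fold, unadjusted p = 0.0028, limma adjusted p = 0.163), and 1.71% of all genes had a smaller p. With a variance trend and robust estimation its adjusted p was 0.0121, and it was then the only one of the 10 genes that passed. The change was 0.48 with normexp correction and 0.64 to 0.72 with 1 mouse left out. Its single probe spans 496 bases of mm9 chromosome 12, from 56590945 to 56591440 on the minus strand, and so crosses an intron and reads spliced RNA. The probe sequence is shown because the clearest of the inhibitor values rests on it alone.
Nfkbia probe: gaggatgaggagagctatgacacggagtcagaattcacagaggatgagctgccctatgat

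Nfkbie encodes IkB-epsilon, a slower inhibitor of the same class. It gave 0.12 and -0.12 in sham mice and -0.47 and -0.50 in SNL mice. Both SNL mice were lower, by at least 0.34, and close to each other (SD 0.021, against 0.17 in sham). The change was -0.48 ± 0.13, or 1.39-fold lower in SNL (95% interval -0.84 to -0.12, unadjusted p = 0.0219, limma adjusted p = 0.319). Leaving out 1 mouse gave -0.60 to -0.36, and the unadjusted p passed 0.05 in 1 of 4 such fits, that without sham replicate 2. Its probe lies on mm9 chromosome 17 at 45700000 to 45700059, plus strand.

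Nfkbib encodes IkB-beta, the third inhibitor of this class. It gave 2.00 and 2.18 in sham mice and 2.19 and 2.14 in SNL mice. The groups overlapped, and the change was 0.075 ± 0.11 (95% interval -0.25 to 0.40, limma adjusted p = 0.829). Its probe lies on mm9 chromosome 7 at 29544160 to 29544219, minus strand. The value was -0.0032 with normexp correction, -0.024 with scaling to the median and -0.015 without sham replicate 1.

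Bcl3 encodes a nuclear IkB protein that binds p50 or p52 dimers on DNA and can turn them into activators. It showed the largest difference among the 10 genes, from -3.54 and -3.94 in sham mice to -2.69 and -2.31 in SNL mice. The lower SNL mouse was 0.85 above the higher sham mouse, a gap wider than the SD within either group (0.29 and 0.26). The change was 1.24 ± 0.22 or 2.36-fold (95% interval 1.51 to 3.68-fold, unadjusted p = 0.00663, limma adjusted p = 0.211). It stayed between 1.03 and 1.44 with 1 mouse left out and was 1.22 with normexp correction. Its probe lies on mm9 chromosome 7 at 20393826 to 20393885, minus strand.

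Nfkbiz encodes IkB-zeta, the other nuclear cofactor, which is needed for a late set of NF-kB targets such as Lcn2 and Il6. It gave -3.82 and -4.09 in sham mice and -3.74 and -3.78 in SNL mice. Both SNL mice were higher, by only 0.046, and the change was 0.20 ± 0.13 (95% interval -0.19 to 0.58, limma adjusted p = 0.627). With normexp correction it was -0.052. Its probe lies on mm9 chromosome 16 at 55817859 to 55817918, minus strand.

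**Figure D2:**
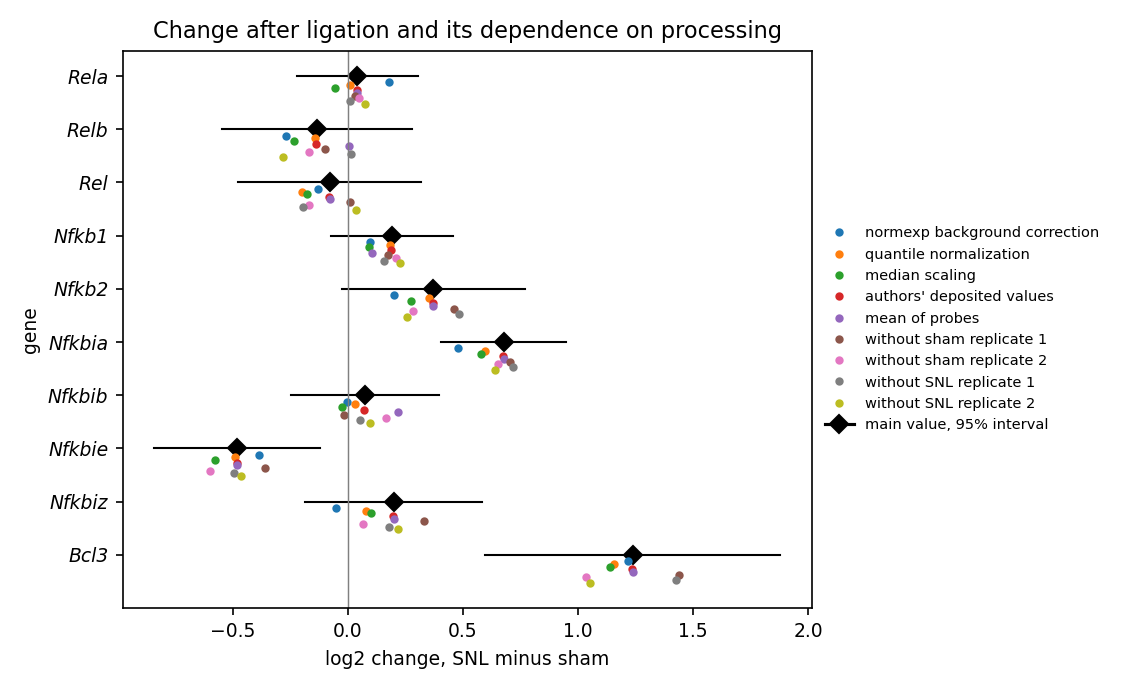
Log2 change of each gene (SNL minus sham, horizontal axis), with the main value as a black diamond and its 95% interval as a line, and coloured points for other processing settings and for fits without 1 mouse. The intervals of Nfkbia, Bcl3 and Nfkbie lie off 0, and Rela, Relb, Rel, Nfkbib and Nfkbiz have settings on both sides of 0.

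Genes within a class could be set against each other on the same array, where the scaling of the array cancels. These ratios were chosen with the values known and are given without a test. The log2 ratio of Nfkbia to Nfkbie was 1.81 and 2.00 in sham mice and 3.01 and 3.12 in SNL mice, a difference of 1.16. The ratio of Nfkbia to Nfkbib differed by 0.60, from -0.069 and -0.30 to 0.36 and 0.48. That of Nfkbib to Nfkbie differed by 0.55, from 1.88 and 2.30 to 2.65 and 2.64. In each ratio both SNL mice lay above both sham mice, and the first is the sum of the other 2, so the 3 are not separate observations. The Nfkbib probe used here changed by 0.075, while other probes of Nfkbib gave 0.35 and 0.23. The size of the ratios with Nfkbib therefore depends on the probe.

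The ratio of Bcl3 to Nfkbiz was 0.29 and 0.15 in sham mice and 1.05 and 1.46 in SNL mice, a difference of 1.04. The ratio of Nfkb2 to Nfkb1 overlapped between the groups, at -1.03 and -1.24 against -1.11 and -0.81. The ratios of Relb and Rel to Rela overlapped too, with differences of -0.17 and -0.12. With normexp correction the differences were 0.86, 0.48 and 0.38 for the 3 inhibitor ratios and 1.27 for Bcl3 to Nfkbiz.

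**Figure D3:**
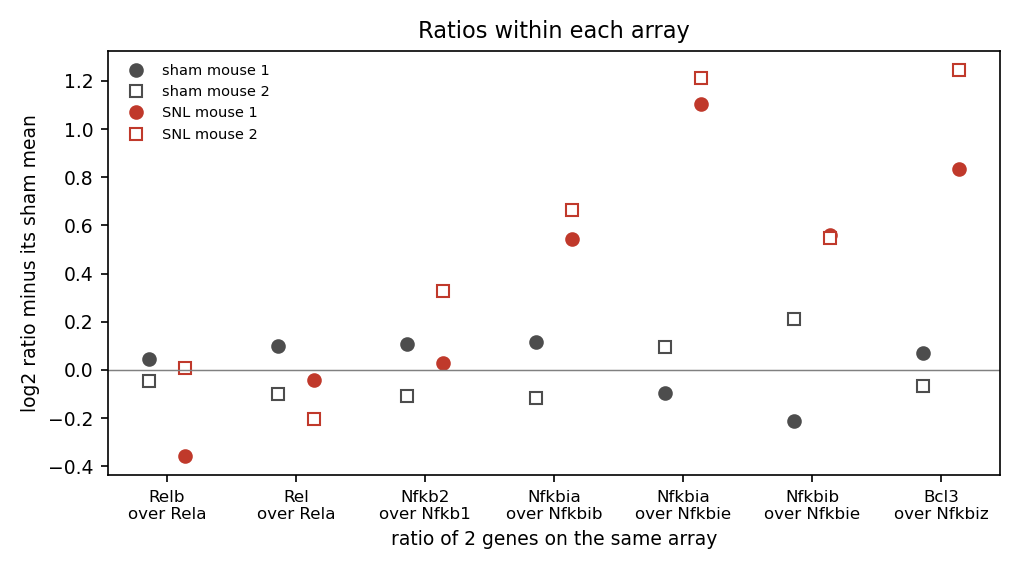
Log2 ratio of 2 family genes on the same array, minus the mean of that ratio in sham mice (vertical axis), for sham (grey) and SNL (red) mice. The ratios of Nfkbia to Nfkbie and of Bcl3 to Nfkbiz stand 1.16 and 1.04 higher in SNL, and the ratios among Rel protein genes and precursors overlap between the groups.

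For 3 of the genes several probes were present, and the one with the highest mean signal represented the gene. The second probe of Nfkb1, on mm9 chromosome 3 at 135254550 to 135254609, gave 0.017 against 0.19 for the first, with groups that overlapped (-0.91 and -1.05 in sham, -1.02 and -0.92 in SNL). The Nfkb1 value therefore rests on 1 of 2 probes. Of Nfkbib, the probe at 29543270 to 29543329 gave 0.35 ± 0.12 and the intron-crossing probe from 29545252 to 29546647 gave 0.23 ± 0.12, against 0.075 for the first. In both, each SNL mouse lay above each sham mouse (-3.03 and -3.11 against -2.64 and -2.80, and 0.20 and 0.41 against 0.56 and 0.51), and the mean of the 3 probes was 0.22. In a limma fit over 44318 probes their adjusted p was 0.394 and 0.557, and their unadjusted p was 0.0431 and 0.145. Of Relb, the neighbouring probe at 20191722 to 20191781 gave -0.055. The probe at 20203058 to 20203117, designed on another transcript, gave 0.21 and put SNL mouse 2 highest at -2.36, with the other mice between -2.92 and -2.71.

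**Figure D4:**
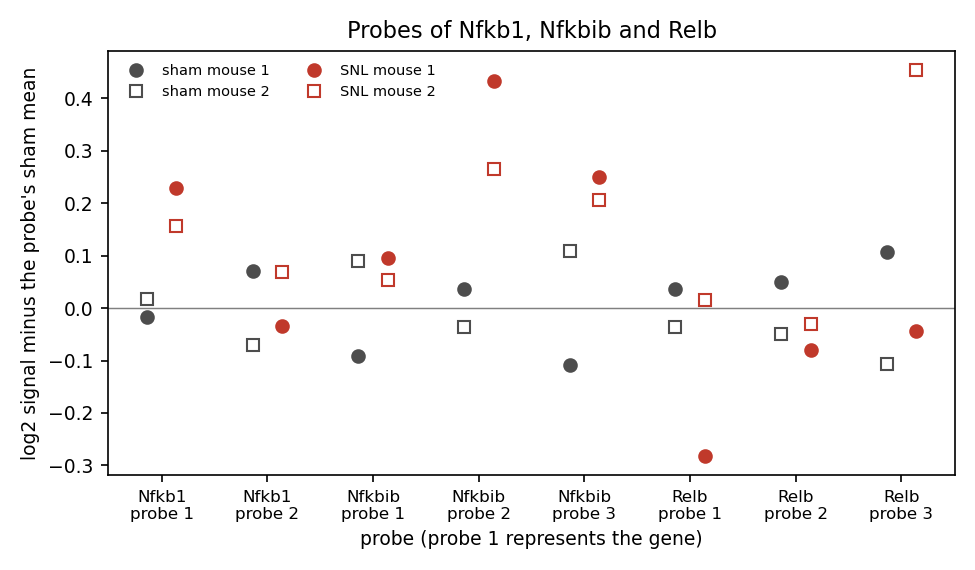
Log2 signal of each probe of Nfkb1, Nfkbib and Relb in each mouse, minus that probe's sham mean (vertical axis), with probe 1 the one that represents the gene. The probes of Nfkbib gave changes of 0.075, 0.35 and 0.23, those of Nfkb1 0.19 and 0.017, and those of Relb -0.13, -0.055 and 0.21.

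Other genes of the pathway were read from 5 lists, in the order in which a signal travels. A gene kept only because it was bright in 1 group had to differ, so the counts and medians of the lists cover the genes well above background on all 4 arrays, in a fit of those genes alone, while values of single genes come from the fit of all 29119. Of all 26863 such genes, 7.44% were higher and 5.45% lower at unadjusted p under 0.05, and the median log2 change was 0.035. Among ligands, 3 of 10 were higher and 1 lower, with a median of 0.14. The interleukin 1 genes Il1a and Il1b were 1.47 ± 0.20 and 1.35 ± 0.20 higher, the RANK ligand gene Tnfsf11 2.20 ± 0.33 and Tnf 0.45 ± 0.090 (limma adjusted p from 0.161 to 0.244). In sham, Tnfsf11 passed the background limit on 1 of 2 arrays, so it is not in the count, and its change was 1.48 with normexp correction. Among receptors, 5 of 16 were higher and 1 lower, with a median of 0.17, and the lower count is near the share of all genes. Tnfrsf1b, a receptor for tumour necrosis factor, was higher by 1.35 ± 0.12, Tlr7 by 1.62 ± 0.17, Tlr4 by 0.98 ± 0.15 and the interleukin 1 receptor gene Il1r1 by 1.34 ± 0.23 (limma adjusted p from 0.0909 to 0.202).

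The IkB kinases and the adaptors that switch them on were centred near 0. Of 28 genes, 0 were higher and 1 lower at unadjusted p under 0.05 in limma, against 7.44% and 5.45% of all genes. Their median was -0.0095. The lower one, Ikbke, encodes a kinase of the interferon arm and was at -0.55 ± 0.13 (adjusted p = 0.296). Next by p were Ikbkg, the regulatory subunit of the kinase, at 0.33 ± 0.13, the ubiquitin ligase gene Rnf31 at 0.24 ± 0.096 and Map3k14, the kinase of the alternative pathway, at 0.34 ± 0.14 (limma adjusted p from 0.449 to 0.459). Rnf31 was at -0.022 with normexp correction, and the second probe of Map3k14 gave -0.078 and that of Ikbkg 0.097.

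Of 16 genes that restrain the pathway, 3 were higher and 1 was lower, against 7.44% and 5.45% of all genes, and their median of 0.024 was close to that of all genes. Tnfaip3, which encodes the ubiquitin-editing enzyme A20, was higher by 0.42 ± 0.12, its partner Tnip2 by 0.34 ± 0.10 and the RNase gene Zc3h12a by 0.55 ± 0.19. Nlrx1, a mitochondrial regulator of innate signalling, was at -0.48 ± 0.093 (limma adjusted p of these 4 from 0.236 to 0.407). With normexp correction Zc3h12a was at 0.36 and Nlrx1 at -0.26, and the second probe of Nlrx1 gave -0.14. The count of higher genes was 0 with scaling to the median and without sham replicate 2, and it was 1 when sham replicate 1 or SNL replicate 2 was left out.

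Of 23 textbook target genes of NF-kB, 8 were higher and 1 was lower at unadjusted p under 0.05. Of all genes well above background on all 4 arrays, 7.44% were higher and 5.45% lower, and the lower count is near that share. The median of the targets was 0.22. The chemokine gene Ccl5 was higher by 2.47 ± 0.22 and Birc3, an inhibitor of apoptosis that also acts in the pathway, by 0.74 ± 0.11 (limma adjusted p = 0.0909 and 0.167). For Il6 neither sham mouse was well above background, and it was kept through the SNL mice alone, so its p is no support and it is not in the count. Its signal was at least 3.19-fold higher in SNL, where the bound sets the SNL mean over the lowest signal counted as above background, or the gene's own signal where that was higher. With normexp correction the fitted log2 change was 1.07, which is below this bound. The lower target was Mmp9, a matrix protease, at -1.97 ± 0.17 (limma adjusted p = 0.0903), from -0.74 and -1.04 in sham mice to -2.75 and -2.98 in SNL mice. Before the limit to genes well above background on all arrays, 10 of 26 targets were higher (6.67% of all 29119 genes). Among the 10 were Il6 and Sele, which were kept through the SNL mice alone. Without sham replicate 2 that count was 5. Over the 5 lists, 0 genes passed an adjusted p under 0.05 in the limma fit of all 29119 genes.

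**Figure D5:**
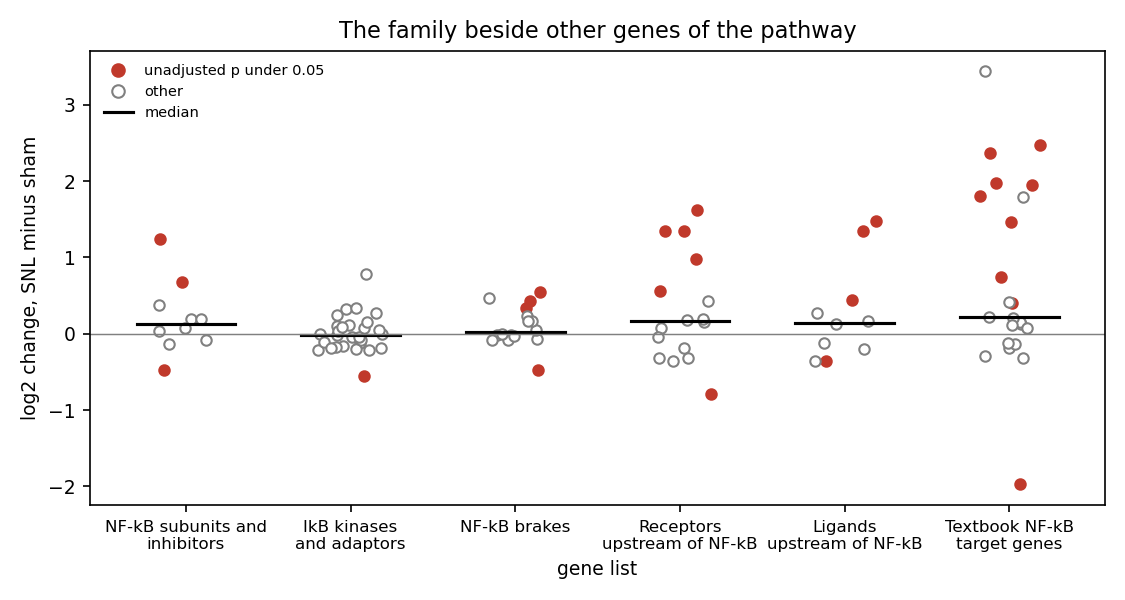
Log2 change (SNL minus sham, vertical axis) of each gene of the NF-kB family and of 5 pathway lists that was well above background on all 4 arrays, with filled red points for unadjusted p under 0.05 and a black bar at the median. The medians are 0.13 for the family, -0.0095 for kinases and adaptors, 0.024 for brakes, 0.17 for receptors, 0.14 for ligands and 0.22 for target genes.

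All 5 lumbar Hox genes and all 8 astrocyte markers were well above background on every array, as were the 7 neuron markers tested. The same held for the 4 B cell and 6 neutrophil markers tested, so detection alone does not identify the tissue. Of all spots, 82.1% and 81.9% were well above background in the sham mice and 74.9% and 78.1% in the SNL mice. The scanner software had put a surrogate in place of the signal of 5136 and 5195 spots in sham and of 7878 and 6515 in SNL. These differences move with the groups, and their part in the results was not tested. For the marker counts below, 54.9% of all genes lay above 0. Among genes well above background on all 4 arrays, 7.44% were higher and 5.45% lower at unadjusted p under 0.05. Microglia and macrophage markers had higher signals in SNL. All 12 lay above 0, 10 of them at unadjusted p under 0.05, with a median of 0.83, and none was below background. Their summed signal was 35.1 and 35.4 times the array's 75th percentile in sham mice and 60.4 and 51.7 times in SNL mice. The part of these cells in the values of Nfkbia, Bcl3 and Nfkbie was not tested, and in whole tissue more cells of a type and more RNA per cell cannot be told apart. Neuron and oligodendrocyte markers also lay above 0, 7 of 7 in each list, with sums of 43.0 and 47.4 against 55.7 and 51.9 for neurons and of 61.3 and 62.1 against 70.4 and 63.8 for oligodendrocytes. Astrocyte markers lay above 0 in 5 of 8, with a median of 0.031 and sums of 37.0 and 37.5 against 39.9 and 36.9. B cell markers lay above 0 in 0 of 4, with a median of -0.33 and sums of 1.00 and 1.20 against 0.904 and 1.20. Of sensory ganglion and Schwann cell markers 4 of 5 lay above 0, with sums of 13.0 and 7.88 against 16.0 and 11.6. The sums of fibroblast markers were 25.0 and 15.6 in sham against 25.6 and 18.0 in SNL. In both lists the mouse numbered 1 had the higher sum within each group. Of T cell markers well above background on all arrays, 5 of 6 lay above 0 and 2 were higher at unadjusted p under 0.05. Over all 7 tested, which include Cd8b1, kept through the SNL mice alone, the sums were 0.411 to 0.436 in sham and 0.460 to 0.508 in SNL. Of neutrophil markers 1 of 6 lay above 0, with sums of 7.79 to 10.2 in sham and 5.75 to 8.23 in SNL, and of endothelial markers 1 of 7, with sums of 9.24 to 9.56 against 7.47 to 8.40. Of motor neuron markers well above background on all arrays, 1 of 5 lay above 0 and 3 were lower at unadjusted p under 0.05. Over all 6 tested, which include Mnx1, kept through the sham mice alone, the sums were 18.6 to 20.7 in sham and 13.5 to 16.0 in SNL.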

How the data were processed

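Cy3-labelled RNA of 4 mice was hybridised to 1-colour Agilent arrays (design 028005), 1 array per mouse. The authors deposited scanner files of spot intensity on a linear scale from Agilent Feature Extraction, which is release 10.7.3.1 as stated per the file headers, while the submitters' processing notes name 10.7.1.1. Probe positions refer to mm9 per the file headers. The authors also deposited a table of log2 values, which correlated with each array's scanner values at r rounding to 1 and lay 0.122 to 0.132 above them in the median; over which spots it was centred stays unknown.

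The processed signal was put on the log2 scale and centred per array on the 75th percentile of 59305 spots, controls excepted. Outlier spots counted in that percentile and were left out afterwards. The RefSeq gene table (GRCm38.p6) named 26864 of 55681 probes by accession, 3751 by symbol and 623 by an older symbol, and 24443 kept the name in the file. Probes well above background on at least 2 arrays were kept, and the probe with the highest mean represented a gene. Differences (SNL minus sham) were fitted with limma 3.58.1 (R 4.3.3) over all 29119 genes, with Benjamini-Hochberg adjustment. Residual degrees of freedom were 2 and prior ones 1.65. The number of arrays limits the precision. The script was tested on simulated data.

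The members and lists were chosen with earlier results of these data known. All 10 members are named, with up to 4 genes of the smallest p from each pathway list. Alternatives were normexp correction with an offset of 50, quantile and median scaling, the authors' values, other filters on dim probes, the mean of probes, a variance trend, the replicate number as a block and leaving out each mouse. Slide and scan could not be a block, with 1 of each. Protein sequences were not analysed here. Whether the replicate numbers pair the mice is not known. Deviations from the group means of same-numbered mice correlated at -0.027 over genes. This value cannot decide the question, since within a group the deviations of the mice are equal and opposite.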

Additional observations from a re-analysis of the deposited data

How the results depend on the processing

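The changes of Nfkbia, Bcl3, Nfkbie, Nfkb1 and Nfkb2 kept their direction in all 13 alternatives run. Most of these alternatives could not turn it. Other filters on dim probes, the variance trend and the replicate block left each change as it was. The authors' values track the same signals almost exactly. Since the main groups of these genes did not overlap, leaving out 1 mouse could not turn a direction. Open to a turn were normexp, quantile and median scaling, and for Nfkb1 the mean of probes. Turned directions, all in values that passed no threshold, were those of Nfkbib (-0.0032 with normexp, -0.024 with median scaling, -0.015 to 0.17 with 1 mouse left out), Nfkbiz (-0.052 with normexp), Rela (-0.058 with median scaling), Relb (0.0058 as the mean of probes, -0.28 to 0.015 with 1 mouse left out) and Rel (-0.19 to 0.034 with 1 mouse left out, with 0.010 without sham replicate 1). The median of the 10 genes, 0.13, was 0.048 with normexp, 0.053 with quantile and 0.035 with median scaling. With a variance trend, 1 of the 10 genes passed. In fits without 1 mouse the targets tested differ, so their counts are not over a fixed list. Il6 and Sele were not tested without either SNL mouse, nor Csf2 without either sham mouse. Leaving out 1 mouse gave 0 to 1 members lower at unadjusted p, 0 to 1 kinases or adaptors higher, 0 to 2 brakes higher, 5 to 9 targets higher (10 of 26 with all mice), and 0 genes called higher and 0 lower over all genes.

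Over all genes, 47 were called higher and 3 lower. These counts were 117 and 14 with normexp, 11 and 0 with quantile, 202 and 62 with median scaling, 1142 and 88 with no filter on dim probes, and 435 and 123 with a variance trend. The count of lower genes was 5 with the filter set to all 4 arrays. Of kinases and adaptors, 2 were higher with normexp and 1 with a variance trend, and of brakes 0 with median scaling. With the replicate block, 0 genes were called higher and 0 lower over all genes. In that fit 1 brake was higher at unadjusted p, and the 10 genes kept 2 higher and 1 lower. Whether the replicate numbers pair the mice is not known. The cause of these shifts was not tested. A block for slide or scan was not run, as there was 1 of each.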
